A study of Mus musculus with 6 samples.

Results

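The ATF4 amino acid stress response was followed through 10 genes, Atf4, Ddit3, Asns, Chac1, Trib3, Ddit4, Psat1, Phgdh, Slc7a11 and Slc3a2, out of 30142 genes measured in mouse acute myeloid leukaemia (AML) cells. The genes were taken by symbol from the array's annotation, with the row of highest mean kept for each gene, and all 10 were found. RNA came from leukaemia cells that carried the fusion oncogene MLL-AF9 and were sorted from bone marrow of recipient mice with end-stage disease. The 3 control arrays held leukaemia of littermate controls, and the 3 Dnmt3b-KO arrays held leukaemia that lacked Dnmt3b, the gene of a DNA methyltransferase that places new methyl marks. Both groups carried MLL-AF9. The age and strain of the mice, the way Dnmt3b was deleted, the markers used for sorting and whether each array was a separate mouse are not given in the sources used here. Hence the p-values rest on the spread between arrays, part or all of which may be technical.

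ATF4 is a basic leucine zipper transcription factor made when cells run short of amino acids or meet other stress. Stress kinases phosphorylate the initiation factor eIF2, which slows protein synthesis in general but favours translation of the Atf4 mRNA, so the level of that mRNA does not report the level of the protein. ATF4 pairs with C/EBP and other zipper proteins on a short DNA element and switches on genes that import and make amino acids, charge tRNAs, and, under lasting stress, feed back on the response or promote cell death. Proliferating leukaemia cells draw on imported and newly made amino acids, among them asparagine, serine and cystine.

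The DNA element is shown because ATF4 acts on target genes through it, and it was not taken to be present in all 10 genes. A core of TGATGNAAN, where N is any base, was searched on both strands of RefSeq promoter windows of assembly GRCm38.p6 that run from 250 bases before to 50 bases after a start. It was present in 4 of the 10 genes and in 4 of their 11 windows, as Psat1 has 2 starts. Of all 32851 windows of this length, 3.95% held it. Capitals mark the matches, and each line runs 5′ to 3′ on the strand of the gene.
Slc7a11: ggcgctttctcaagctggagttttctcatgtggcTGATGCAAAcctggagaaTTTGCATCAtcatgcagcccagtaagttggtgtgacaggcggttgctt
Chac1: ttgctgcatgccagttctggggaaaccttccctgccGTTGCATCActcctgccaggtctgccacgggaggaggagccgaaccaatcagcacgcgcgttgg
Asns: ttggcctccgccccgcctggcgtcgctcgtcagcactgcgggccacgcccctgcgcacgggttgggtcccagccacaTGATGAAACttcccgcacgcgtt
Trib3: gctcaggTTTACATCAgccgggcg

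The Slc7a11 stretch lies at chr3:50443614-50443713 on the minus strand and ends at the base before the start, as does the Asns stretch at chr6:7693210-7693309 on the minus strand. The Chac1 stretch lies at chr2:119351012-119351111 on the plus strand, and the Trib3 stretch at chr2:152344031-152344054 on the minus strand. Slc7a11 had a pair of matches on opposite strands, beginning at bases -66 and -48 from its start. Chac1 had 1 match at base -194, on the strand opposite to the gene, and Asns had 1 at base -23 on its own strand. The Trib3 match began at base 14 after the start, in the transcribed part. The narrower core TTGCATCA, which lies within the first motif, was found in Slc7a11 and Chac1, and in 0.895% of all windows. Atf4, Ddit3, Ddit4, Psat1, Phgdh and Slc3a2 had no match to these letters in their windows. A match describes letters only and does not show that a factor binds there.

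**Figure D1:**
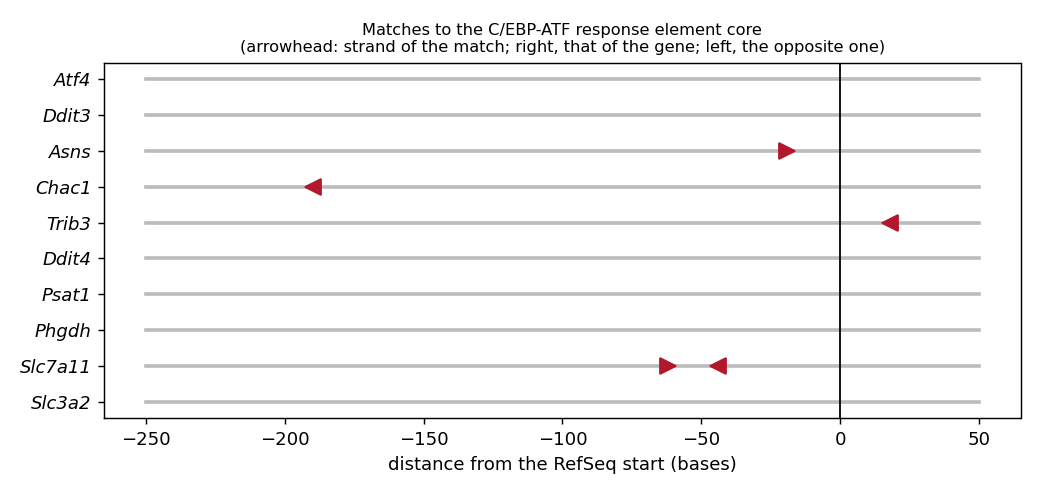
The map places matches to TGATGNAAN in the promoter windows of the 10 genes, with distance from the RefSeq start in bases on the horizontal axis. Slc7a11 has 2 matches that face each other at bases -66 and -48, Chac1, Asns and Trib3 have 1 each, and both windows of Psat1, drawn as 1 line, have none.

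All values below are array levels on the log2 scale as deposited, or differences between such levels in log2 units. Array medians ran from 4.75 to 4.85, and the median gene had a mean level of 4.79, so values near or below it carry little signal. Of 9 measured markers of leukaemic myeloid progenitors, 8 lay above the median gene on all 6 arrays, and Flt3, a receptor gene, lay below it on all 6, at 4.24 to 4.62. Mpo, which encodes myeloperoxidase, measured 16.54 to 17.49, and Kit, a progenitor receptor, 9.71 to 11.42. The targeted transcript, Dnmt3b, gave 6.76, 6.83 and 6.78 on the control arrays against 6.47, 6.63 and 5.96 on the Dnmt3b-KO arrays, and its difference of -0.44 ± 0.17 (SE) missed the threshold (limma, adjusted p = 0.781), as did the -0.24 ± 0.07 without replicate 3 (adjusted p = 0.159). Dnmt3b-KO replicate 3 stood apart, with correlations of 0.981 to 0.982 across genes with the other arrays, against 0.998 to 0.999 among those 5. It measured 8.26 for Eif2s3y, a gene of the Y chromosome, where the others measured 4.41 to 4.54. The comparison of each of the 10 genes is therefore given with and without that array, and its own values are shown apart.

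None of the 10 genes passed the threshold of an adjusted p under 0.05 in either comparison. Over all 6 arrays, 8 of the 10 had a change above 0, with a median change of 0.36 against 0.00 over all genes, and their adjusted p ran from 0.833 to 0.905 (limma). This fit called 0 of 30142 genes (0.0%), with 1920 genes at an unadjusted p under 0.05, or 6.37% of all, and 0 members among those 1920. Without Dnmt3b-KO replicate 3, 5 of the 10 had changes above 0 and 5 below, with a median of 0.02 against -0.01 over all genes. This fit called 509 genes, 1.69% of all, and 0 of the 10. Phgdh and Psat1, which encode successive enzymes of serine synthesis, had an unadjusted p under 0.05 there, as did 15.5% of all genes. In the same fit 7 of 9 measured mast cell, basophil and eosinophil markers had changes below 0, and 6 of these passed the threshold. Over 6 arrays 0 of the 9 passed. Over 5 arrays Cpa3, a mast cell protease, had a change of -3.12 and Prg2, an eosinophil granule protein, one of -3.36 (limma, adjusted p = 0.00469 and 0.00394). The basophil marker Mcpt8 went the other way, at 0.64, and Fcer1a was at 0.05 (limma, adjusted p = 0.167 and 0.825). The mean level of that list was 7.94 to 8.02 in control, 6.60 and 6.88 on Dnmt3b-KO replicates 1 and 2, and 5.68 on replicate 3. Of the progenitor markers 1 of 9 passed, Meis1, a cofactor of HOX proteins, which rose by 0.65 (adjusted p = 0.0111). The part of such cells in the values of Phgdh, Psat1 and the pathway genes was not tested.

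**Figure D2:**
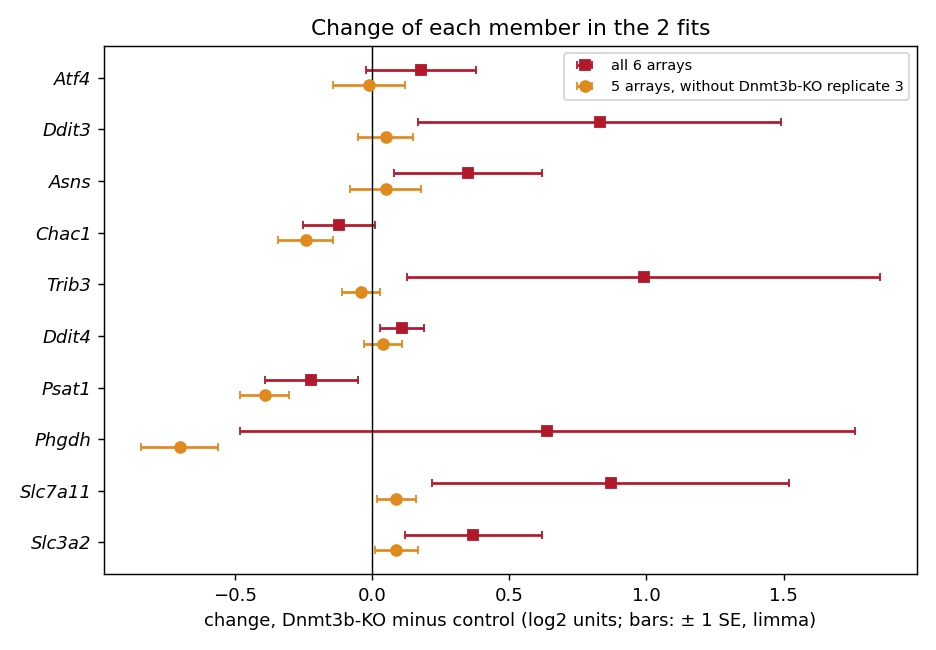
Points give the change of each gene, Dnmt3b-KO minus control, in log2 units, with bars of 1 SE from limma. Squares use all 6 arrays and circles leave out Dnmt3b-KO replicate 3. The SE runs from 0.08 to 1.12 over 6 arrays and from 0.07 to 0.14 over 5, and Phgdh lies at 0.64 in the first fit and at -0.70 in the other.

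Atf4 itself measured 10.71, 10.69 and 10.84 in the controls and 10.52, 10.95 and 11.31 on the Dnmt3b-KO arrays, in order of replicate number. Dnmt3b-KO replicate 1 was the lowest of the 6 arrays and replicate 3 the highest, so the groups overlapped. The change was 0.18 ± 0.20 (SE) over 6 arrays (limma, adjusted p = 0.85) and -0.01 ± 0.13 without replicate 3 (adjusted p = 0.981).

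Ddit3 encodes CHOP, a zipper protein that ATF4 induces and that promotes cell death under lasting stress. It measured 8.07, 7.92 and 8.13 in control and 7.94, 8.22 and 10.45 in Dnmt3b-KO. The first 5 of these values ran from 7.92 to 8.22, and Dnmt3b-KO replicate 3 lay 2.39 above their mean. Over 6 arrays the change was 0.83 ± 0.66 (SE; limma, adjusted p = 0.833), and without that array it was 0.05 ± 0.10 (adjusted p = 0.906). A second array row of Ddit3, which was not used for the test because its mean was lower, measured 6.61 to 6.96 on the 5 other arrays and 9.52 on Dnmt3b-KO replicate 3. Both rows thus placed that array highest.

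Trib3 and Chac1 are targets of ATF4 that act late in the response. Trib3 encodes a pseudokinase that binds AKT and restrains ATF4, and Chac1 an enzyme that breaks down glutathione. Trib3 measured 3.97, 4.07 and 4.10 in control, below the median gene, and 3.97, 4.05 and 7.10 in Dnmt3b-KO. Only Dnmt3b-KO replicate 3 lay above the median gene, so the size of the gap of 3.06 to the mean of the other arrays is not exact. The change over 6 arrays was 0.99 ± 0.86 (SE; limma, adjusted p = 0.833), and over 5 arrays it was -0.04 ± 0.07 (adjusted p = 0.879).
Chac1 measured 5.02, 5.23 and 5.17 in control and 4.77, 5.02 and 5.25 in Dnmt3b-KO, all close to the median gene. Its change was -0.12 ± 0.13 (SE; limma, adjusted p = 0.844) over 6 arrays and -0.24 ± 0.10 without Dnmt3b-KO replicate 3 (adjusted p = 0.325). Chac1, which has a match to the element in its window, was thus highest on that array too, but only 0.20 above the mean of the other 5.

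Ddit4 encodes REDD1, a brake on the growth kinase complex mTORC1. It measured 4.72, 4.85 and 4.70 in control and 4.80, 4.80 and 4.99 in Dnmt3b-KO. All 6 values lay between 4.70 and 4.99, near the median gene, so this row gives little signal in these cells. The change was 0.11 ± 0.08 (SE; limma, adjusted p = 0.833) over 6 arrays and 0.04 ± 0.07 (adjusted p = 0.839) over 5.

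The enzymes that make amino acids differed in pattern. Asns, asparagine synthetase, measured 11.52, 11.93 and 11.93 in control and 11.82, 11.88 and 12.73 in Dnmt3b-KO. Dnmt3b-KO replicates 1 and 2 lay inside the control range and replicate 3 lay 0.92 above the mean of the other 5. Its change was 0.35 ± 0.27 (SE; limma, adjusted p = 0.833), and 0.05 ± 0.13 without replicate 3 (adjusted p = 0.913).

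Phgdh, phosphoglycerate dehydrogenase, opens the pathway from glycolysis to serine. The control arrays measured 8.15, 8.65 and 8.48, and the Dnmt3b-KO arrays 7.78, 7.66 and 11.75. Replicates 1 and 2 were below every control, and replicate 3 was the highest of all, 3.61 above the mean of the other 5. The change over 6 arrays was 0.64 ± 1.12 (SE; limma, adjusted p = 0.905). Without replicate 3 it was -0.70 ± 0.14, which did not pass over all genes (limma, adjusted p = 0.0829). It did pass when only genes above the median gene were tested (adjusted p = 0.0322). There 1003 of the 15071 tested genes passed, against 509 of 30142 over all genes.

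Psat1, phosphoserine aminotransferase, catalyses the next step. It measured 11.34, 11.62 and 11.46 in control and 11.02, 11.14 and 11.60 in Dnmt3b-KO. In this group replicates 1 and 2 again lay below every control, whereas replicate 3 lay inside the control range, the only one of the 10 genes for which it was not the highest array. The change was -0.22 ± 0.17 (SE; limma, adjusted p = 0.833) over 6 arrays and -0.39 ± 0.09 (adjusted p = 0.117) without replicate 3. Without that array the groups did not overlap for Phgdh and Psat1, 2 of the 10 genes, against 32.5% of all genes. Over 6 arrays they did not overlap for 0 of the 10, against 14.9% of all genes.

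Slc7a11 and Slc3a2 encode the light and heavy chains of the transporter that imports cystine in exchange for glutamate, and the heavy chain also serves other amino acid transporters. Slc7a11 measured 4.07, 4.26 and 4.16 in control and 4.25, 4.26 and 6.60 in Dnmt3b-KO. The first 5 values lay below the median gene, and replicate 3 stood 2.40 above their mean, a gap whose size is not exact for that reason. The change was 0.87 ± 0.65 (SE; limma, adjusted p = 0.833), and 0.09 ± 0.07 without replicate 3 (adjusted p = 0.634).
Slc3a2 measured 12.19, 12.43 and 12.40 in control and 12.42, 12.43 and 13.29 in Dnmt3b-KO. In this group replicates 1 and 2 lay at the top of the control values and replicate 3 was 0.91 above the mean of the other 5. The change was 0.37 ± 0.25 (SE; limma, adjusted p = 0.833), and 0.09 ± 0.08 without replicate 3 (adjusted p = 0.728).

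**Figure D3:**
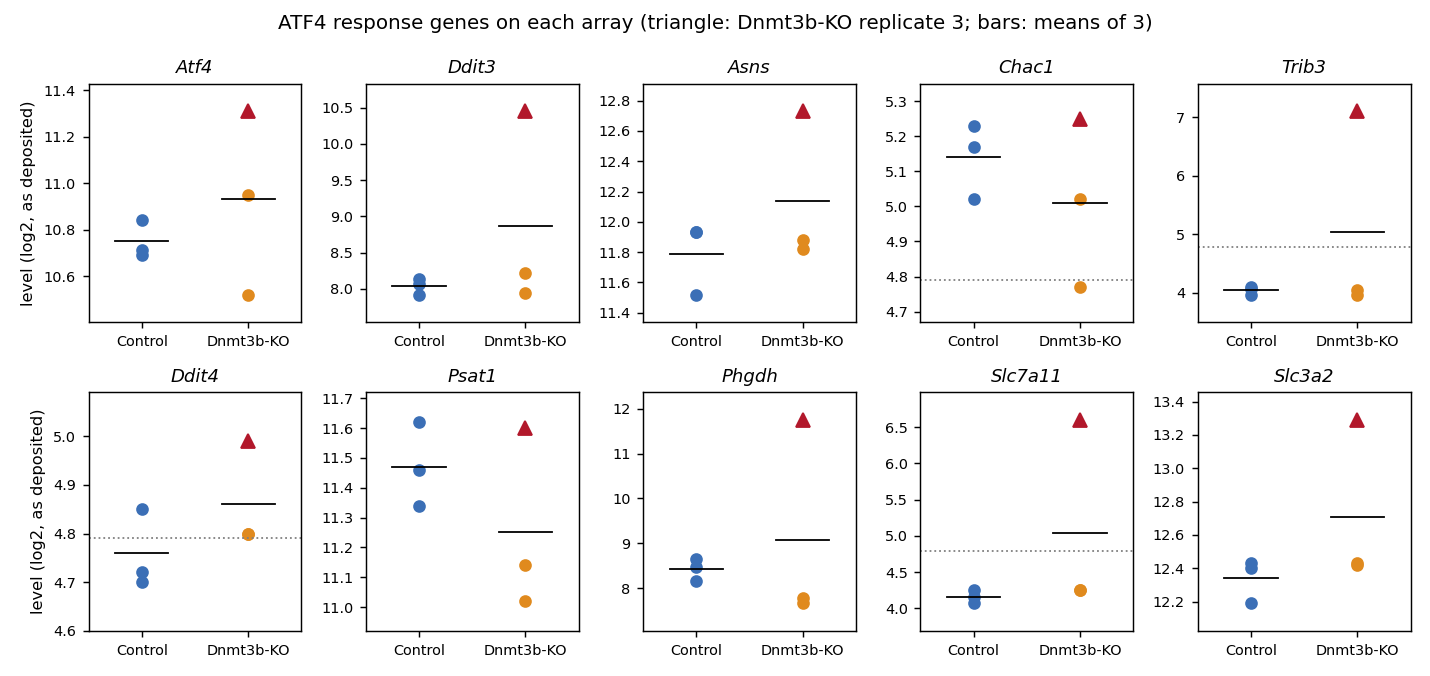
Each panel shows 1 gene, with the log2 level on the vertical axis, circles for the control arrays and for Dnmt3b-KO replicates 1 and 2, a triangle for Dnmt3b-KO replicate 3, and bars for the means of 3. A dotted line marks the median gene at 4.79 in the 4 panels whose values lie near it. The triangle is the highest point in 9 panels and lies inside the control range for Psat1.

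On Dnmt3b-KO replicate 3, 9 of the 10 genes were above all other 5 arrays, where 33.9% of all genes were. Trib3, Phgdh, Ddit3 and Slc7a11, 4 of the 10, were more than 2 above the highest of the others, against 1.2% of all genes, and 5 of the others lay less than 1 above it. The median difference from the mean of the other 5 was 0.92 for the 10 genes and 0.01 for all genes. A single array has no replicate, so these values have no test and describe that array. On the same array 12 of 13 measured monocyte and macrophage markers were above all other 5 arrays, 11 of them by more than 1, against 33.9% and 3.06% of all genes. The mean level of the list was 11.47 there, 7.29 and 7.09 on Dnmt3b-KO replicates 1 and 2, and 7.04 to 7.27 in control. On the other arrays Mrc1, Fcgr1, C1qa and C1qc were below the median gene. The macrophage glycoprotein gene Gpnmb measured 16.16 there and at most 5.55 elsewhere. Of the 9 progenitor markers, 6 were below all other arrays there, against 31.3% of all genes, with a list median of -0.89 from the mean of the other 5. Kit at 9.71, Meis1 at 10.21 and Myb at 14.93 were more than 1 below the others, whose lowest values were 11.02, 11.34 and 16.10. The other 3 markers, Ptprc, Itgam and Cd33, were above all other arrays. They measured 13.92, 15.41 and 13.33 on that array, against highest values of 13.07, 13.95 and 13.06 elsewhere. The part of macrophages or of fewer progenitors in the values of the 10 genes was not tested, and in such bulk RNA more cells of a type and more RNA per cell cannot be told apart.

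Among the other 5 arrays the 10 genes spanned from 0.14 log2 units, for Trib3, to 0.99, for Phgdh. Control replicate 1 was the lowest of the 3 controls for 7 of the 10, namely Asns, Chac1, Trib3, Psat1, Phgdh, Slc7a11 and Slc3a2, where 33.4% of all genes had their lowest control value on it. The same array was the lowest control for 7 of 8 other serine and one-carbon enzymes, 8 of 11 other amino acid enzymes, 8 of 14 amino acid transporters and 13 of 17 cytosolic aminoacyl-tRNA synthetases, which load amino acids onto tRNAs. In the remaining pathway lists described below the counts were nearer the share of all genes. They were 5 of 16 other ATF4 targets, 5 of 14 eIF2 genes and 4 of 14 zipper factors. For glutathione genes the count was 3 of 9, for mTORC1 genes 5 of 17 and for endoplasmic reticulum genes 6 of 15. After repeated quantile normalization Control replicate 1 was lowest for 8 of the 10 genes, against 32.1% of all genes. It was then lowest for 7 of 8 serine and one-carbon enzymes and 7 of 11 other amino acid enzymes. For transporters the count was 7 of 14 and for synthetases 14 of 17. The array median of Control replicate 1, 4.76, lay close to the 4.77 and 4.78 of the other controls. These are counts within 1 group of 3 arrays and have no test.

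The pattern of Atf4 over the arrays was set beside that of 15070 other genes above the median gene, as a description. Over 6 arrays the highest Pearson correlations were those of AW549877 (0.988), Stx8 (0.987) and Rnu5g (0.982), and over the 5 arrays without Dnmt3b-KO replicate 3 those of Elf2 (0.997), Gm2447 (0.996) and Egfl8 (0.994). Of the members above the median gene, Ddit3 was the nearest to Atf4 in both, at 0.896 over 6 arrays and 0.885 over 5. Asns was at 0.835 over 6 arrays but 0.256 over 5, and Phgdh at 0.815 but -0.0367. The values over 6 arrays all share the high point of Dnmt3b-KO replicate 3, and few arrays enter either figure.

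The wider pathway was read from 10 lists with 134 measured genes beside the members. Of these 134, 0 passed the threshold over 6 arrays and 0 without Dnmt3b-KO replicate 3, where the smallest adjusted p was 0.0548 (limma). Without that array 32 of the 134, or 23.9%, had an unadjusted p under 0.05, 13 higher and 19 lower, against 15.5% of all genes. On Dnmt3b-KO replicate 3, 28 of the 134, or 20.9%, were more than 1 above all other 5 arrays, against 3.06% of all genes and 4.85% of genes above the median gene. Only 1 of the 134, the synthetase gene Farsa at -1.38 from the mean of the other 5, was more than 1 below all others, as were 1.59% of all genes. Genes named below for their level on that array were chosen after their values were seen.

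Upstream of ATF4, 14 genes of the eIF2 kinases, the eIF2B exchange factor, phosphatase subunits and related regulators were measured, and 0 passed in either fit. Their median change was -0.15 over 6 arrays and 0.01 without Dnmt3b-KO replicate 3. Eif2b1, a subunit of the exchange factor, had the smallest p, with 9.62, 9.53 and 9.52 in control and 9.30, 9.30 and 9.38 in Dnmt3b-KO and a change of -0.26 ± 0.06 (SE; limma, adjusted p = 0.105) over 5 arrays and -0.23 ± 0.06 (adjusted p = 0.648) over 6. The kinase genes Eif2ak1 and Eif2ak3 measured 11.20 and 8.81 on Dnmt3b-KO replicate 3, below the lowest of the other arrays at 11.73 and 9.59, while Eif2ak4, which encodes GCN2, the kinase that senses uncharged tRNA, measured 9.37 against 9.03 to 9.16. Ppp1r15a, the ATF4-induced phosphatase subunit GADD34, measured 4.83, 4.84 and 4.81 in control and 4.96, 5.21 and 5.72 in Dnmt3b-KO, near the median gene. Its groups did not overlap, as for 14.9% of all genes, and its change over 5 arrays was 0.26 ± 0.08 (SE; limma, adjusted p = 0.204).

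Of 14 zipper partners and related factors 0 passed, with a median change of 0.07 without Dnmt3b-KO replicate 3. Fos, an AP-1 subunit and immediate early gene, had the smallest p, at 11.52, 11.87 and 12.37 in control and 12.76, 13.48 and 12.90 in Dnmt3b-KO. All Dnmt3b-KO values lay above the controls, and the change was 1.20 ± 0.29 (SE; limma, adjusted p = 0.122) over 5 arrays and 1.13 ± 0.28 (adjusted p = 0.648) over 6. Among genes above the median gene it passed without that array (limma, adjusted p = 0.0497), as did 1003 of the 15071 tested. Jun, its AP-1 partner, measured 8.69, 9.27 and 10.02 in control and 10.51, 11.46 and 10.71 in Dnmt3b-KO, also without overlap, with a change of 1.66 ± 0.43 (SE; limma, adjusted p = 0.137) over 5 arrays and 1.56 ± 0.40 (adjusted p = 0.648) over 6. Jun, and Fosb and Dusp1 below, were singled out after their values were seen. Fos also belongs to the list of immediate early and heat shock genes, which can move with sample handling. In that list, without Dnmt3b-KO replicate 3, 1 of 10 genes passed: the heat shock gene Hsph1 fell by 1.06 (limma, adjusted p = 0.0393), and its change over 6 arrays was -0.75 (adjusted p = 0.781). Other genes of that list had larger changes of the opposite sign over 5 arrays that did not pass: 1.92 for Fosb (limma, adjusted p = 0.077), 1.70 for Dusp1 (adjusted p = 0.0631) and 1.66 for Jun. Its immediate early genes Egr1 and Ier2 were at -0.31 and 0.13 (limma, adjusted p = 0.74 and 0.816). Of the 10 genes, 5 had changes above 0 and 5 below, with a median of 0.02. The part of sample handling in the values of Fos and Jun was not tested. On Dnmt3b-KO replicate 3, Atf3, an ATF4-induced factor, measured 8.94 against 4.65 to 4.80 on the others, which lie at the median gene. Dnmt3b-KO replicates 1 and 2, at 4.80 and 4.76, lay just above the controls at 4.65 to 4.72. The next values are those of Dnmt3b-KO replicate 3 against the others. Cebpg, a partner of ATF4, measured 9.56 against 8.62 to 8.77, while Cebpa, a driver of the granulocyte lineage, measured 8.10 against 8.98 to 9.33.

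Beyond Phgdh and Psat1, 8 serine, glycine and one-carbon enzymes were measured and 0 passed, with a median change of -0.14 without Dnmt3b-KO replicate 3 and 6 of 8 changes below 0. Mthfd1, which interconverts cytosolic folates, had the smallest p, at 11.13, 11.31 and 11.32 in control and 10.79, 10.98 and 10.61 in Dnmt3b-KO. Its change was -0.37 ± 0.09 (SE; limma, adjusted p = 0.118) over 5 arrays and -0.46 ± 0.11 (adjusted p = 0.648) over 6, and each Dnmt3b-KO array was below every control array. The mitochondrial enzyme Shmt2 measured 11.88 and 11.95 on Dnmt3b-KO replicates 1 and 2, below the 12.09 to 12.26 of control, and 12.24 on replicate 3. That array was above all others for 3 of the 8 and below all others for 4, against 33.9% and 31.3% of all genes, and more than 1 above them for 2 of the 8, against 3.06%. Aldh1l2, a mitochondrial folate dehydrogenase, measured 8.61 against 4.19 to 4.21, below the median gene, and Mthfd2, its neighbour in the mitochondrial pathway, 11.02 against 9.13 to 9.71. Tyms, which makes thymidylate, measured 9.80 there, below the 10.49 to 10.90 of the others.

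**Figure D4:**
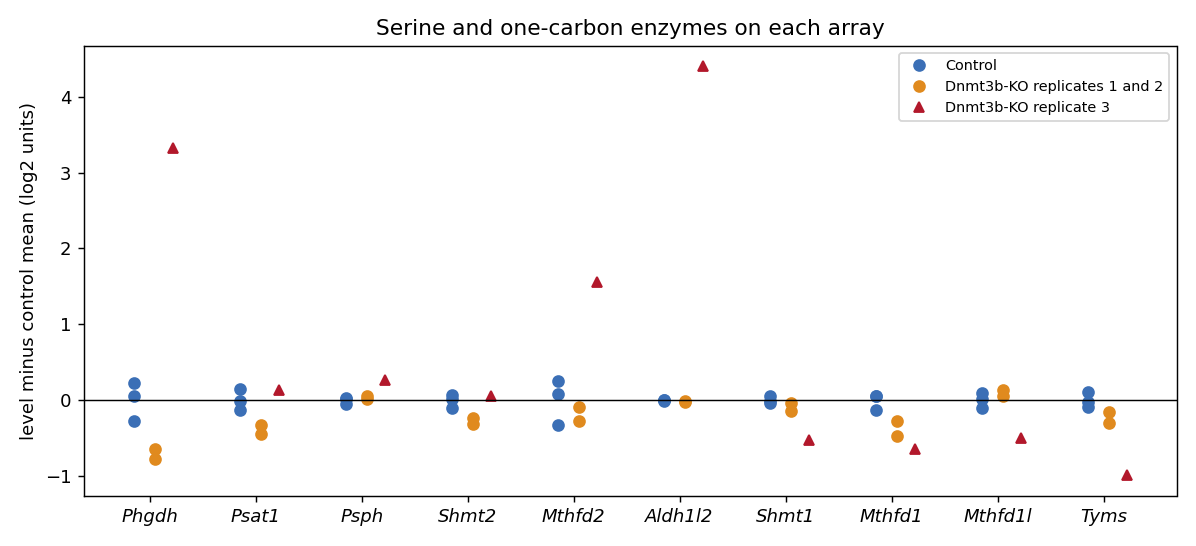
Points give the level of each serine and one-carbon enzyme on each array minus its control mean, in log2 units. Circles for Dnmt3b-KO replicates 1 and 2 lie below every control for Phgdh, Psat1, Shmt2 and Mthfd1, among others, and the triangle for replicate 3 is far above the rest for Phgdh, Mthfd2 and Aldh1l2.

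Of 11 enzymes for other amino acids 0 passed. Got2, a mitochondrial aspartate aminotransferase, had the smallest p, with a change of -0.20 ± 0.06 (SE; limma, adjusted p = 0.184) without Dnmt3b-KO replicate 3 and -0.07 ± 0.12 (adjusted p = 0.899) over 6 arrays. On that array 5 of the 11 were more than 1 above all others, against 3.06% of all genes. Cth, which makes cysteine from cystathionine, measured 9.71 against 5.42 to 5.64, Pck2, the mitochondrial phosphoenolpyruvate carboxykinase, 10.05 against 7.87 to 8.16, and Aldh18a1, which starts proline synthesis, 12.11 against 10.43 to 10.91. For Pck2, Dnmt3b-KO replicates 1 and 2, both at 8.16, also lay above the controls at 7.87 to 8.07.

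Of 14 amino acid transporters beside the cystine carrier 0 passed, and 11 had changes below 0 without Dnmt3b-KO replicate 3, with a median of -0.12. Slc7a6, a partner of the Slc3a2 heavy chain, had the smallest p, at 9.24, 9.27 and 9.19 in control and 8.84, 8.93 and 9.24 in Dnmt3b-KO, with a change of -0.35 ± 0.06 (SE; limma, adjusted p = 0.0568) over 5 arrays and -0.23 ± 0.11 (adjusted p = 0.823) over 6. Among genes above the median gene it passed over 5 arrays (limma, adjusted p = 0.0304), as did 1003 of the 15071 tested. Dnmt3b-KO replicate 3 did not share the lower value. That array was more than 1 above all others for 5 of the 14, against 3.06% of all genes. Among the 5 were further partners of Slc3a2, Slc7a8 at 10.79 against 8.15 to 8.55 and Slc7a5 at 12.78 against 11.05 to 11.62.

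Of 17 cytosolic aminoacyl-tRNA synthetases 0 passed, with a median change of 0.26 over 6 arrays and -0.03 over 5. Farsa, a subunit of the phenylalanine enzyme, had the smallest p, with a change of -0.25 ± 0.06 (SE; limma, adjusted p = 0.118) without Dnmt3b-KO replicate 3 and -0.66 ± 0.34 (adjusted p = 0.825) over 6 arrays. On that array 11 of the 17 were above all others, 7 of them by more than 1, against 33.9% and 3.06% of all genes. The list median there was 0.75 above the mean of the other 5. Rars measured 14.50 against 12.58 to 12.87, Eprs 14.87 against 12.99 to 13.33 and Sars 13.08 against 11.47 to 11.67. Farsb, the other phenylalanine subunit, measured 12.46 against 10.56 to 10.90, while Farsa was lower, so the subunits of that enzyme stood on opposite sides.

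Of 9 genes of glutathione and cystine handling 0 passed, and Gpx4, which repairs lipid peroxides, had the smallest p with a change of 0.18 ± 0.06 (SE; limma, adjusted p = 0.263) without Dnmt3b-KO replicate 3 and 0.20 ± 0.06 (adjusted p = 0.705) over 6 arrays. On that array 6 of the 9 were below all others, where 31.3% of all genes were, among them Gsr, glutathione reductase, at 16.37 against 17.15 to 17.35, and Hmox1, haem oxygenase, was at 8.36 against 5.73 to 6.13. The list median there was -0.31, against 0.92 for the members. Of 17 mTORC1 brakes and amino acid sensors 0 passed, and Nprl3, a subunit of a complex that restrains mTORC1, had the smallest p with a change of 0.19 ± 0.06 (SE; limma, adjusted p = 0.199) without that array and 0.11 ± 0.09 (adjusted p = 0.833) over 6 arrays. On Dnmt3b-KO replicate 3 the median of this list was -0.09 from the mean of the other 5. There 6 of the 17 were above all others, 1 of them by more than 1, and 7 were below all others. The shares of all genes were 33.9%, 3.06% and 31.3%, so the first count was near that of all genes. Sesn2, an ATF4-induced leucine sensor, measured 7.22 on that array against 5.55 to 5.74, and Eif4ebp1, a translation repressor, 10.59 against 9.49 to 9.65. Tbc1d7 was lower there, at 7.59 against 8.39 to 8.54, as was Eif4ebp2, at 10.61 against 11.18 to 11.51.

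Of 16 other ATF4 targets 0 passed. Tnfrsf10b, the death receptor gene that CHOP induces, had the smallest p, at 6.27, 6.20 and 6.23 in control and 5.82, 5.93 and 6.41 in Dnmt3b-KO. In this group replicates 1 and 2 lay below the controls and replicate 3 above them, with a change of -0.36 ± 0.06 (SE; limma, adjusted p = 0.0548) over 5 arrays and -0.18 ± 0.16 (adjusted p = 0.833) over 6. It passed over 5 arrays among genes above the median gene (limma, adjusted p = 0.028), as did 1003 of the 15071 tested. On Dnmt3b-KO replicate 3 the median of this list was 0.17 above the mean of the other 5, against 0.92 for the members. There 8 of the 16 were above all others, 4 of them by more than 1, against 33.9% and 3.06% of all genes. Sqstm1, an autophagy receptor, measured 12.13 against 8.99 to 9.26, and Nupr1, a stress cofactor, 7.34 against 4.23 to 4.50, below the median gene. For Sqstm1, Dnmt3b-KO replicates 1 and 2, at 9.26 and 9.21, also lay above the controls at 8.99 to 9.12. Atg12 was below all others, at 10.22 against 11.19 to 11.52. Vldlr and Fgf21 stayed below the median gene on all 6 arrays.

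Of 15 endoplasmic reticulum chaperones and genes of the other stress branches 0 passed, with a median change of -0.01 without Dnmt3b-KO replicate 3 and a median there of -0.08 from the other 5. Herpud1, which aids degradation of misfolded proteins, had the smallest p, at 11.96, 12.02 and 12.04 in control and 12.32, 12.45 and 12.07 in Dnmt3b-KO. All 3 Dnmt3b-KO values lay above the controls, with a change of 0.38 ± 0.07 (SE; limma, adjusted p = 0.0567) over 5 arrays and 0.28 ± 0.11 (adjusted p = 0.775) over 6. Herpud1 passed over 5 arrays among genes above the median gene (limma, adjusted p = 0.0276), as did 1003 of the 15071 tested. Hspa5, the main chaperone of that compartment, measured 14.89 on Dnmt3b-KO replicate 3, inside the 14.54 to 14.95 of the others. Xbp1, the factor of the IRE1 branch, was at 11.83 against 11.87 to 12.23, and Atf6 at 13.01 against 10.34 to 10.64.

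**Figure D5:**
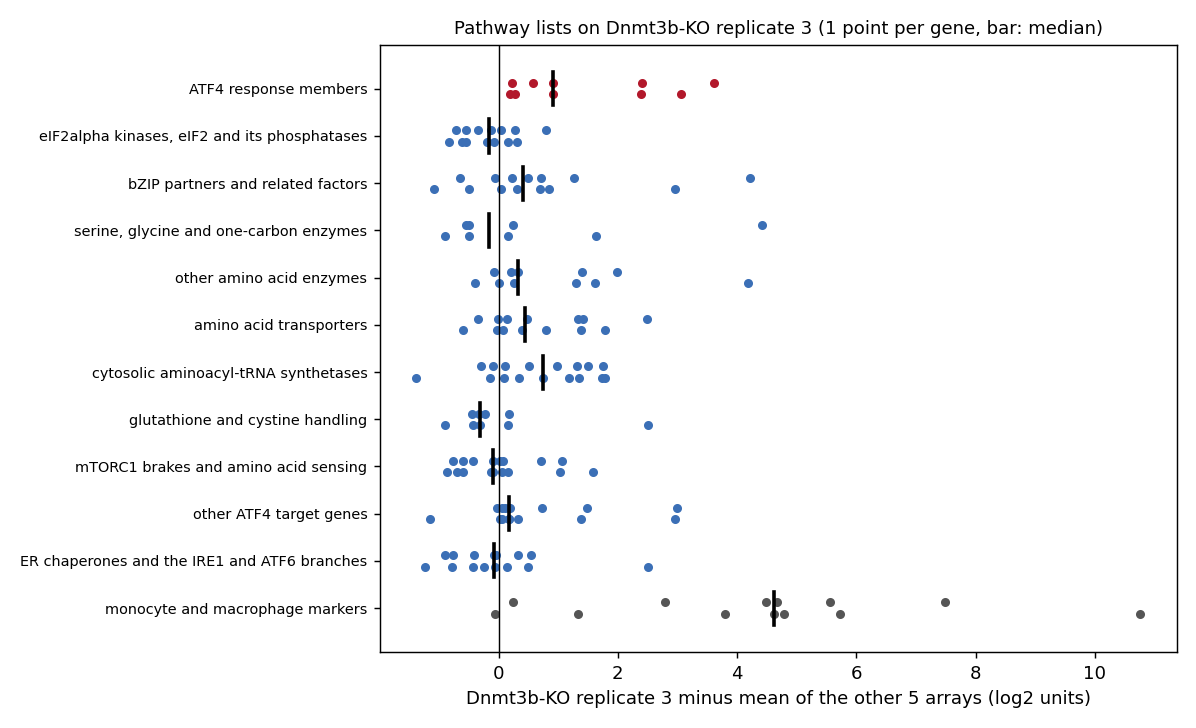
Each point is 1 gene, placed by its level on Dnmt3b-KO replicate 3 minus the mean of the other 5 arrays, in log2 units, with a bar at the median of each list. The median is 0.92 for the 10 members, 0.75 for the tRNA synthetases, -0.08 for the endoplasmic reticulum genes and 4.61 for the monocyte and macrophage markers.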

How the data were processed

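RNA of 6 Affymetrix mouse arrays, 3 control and 3 Dnmt3b-KO, was compared. The authors deposited log2 values that the submitters' processing notes trace to RMA, of unstated version. They reach 19.59, above the 16 bits of a scanner, so a further step is not stated and no folds are given. Of 72688 rows, 30604 had exactly 1 gene symbol and 2146 had several and were not named. Symbols of 827 rows were updated through the gene identifier of RefSeq, and the highest-mean row per gene left 30142 genes. No filter on low values was used. Of the 10 members, 8 had a mean above the median gene, which is 1 of the alternatives.

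Differences were tested with limma 3.58.1 (R 4.3.3), with p-values moderated by eBayes, adjusted by Benjamini-Hochberg across all genes and read at 0.05, with all arrays and without Dnmt3b-KO replicate 3. The fits were tested on simulated data. The comparison without Dnmt3b-KO replicate 3, the members and the lists were chosen with earlier results of these data known. In each pathway list the rule named genes past the threshold without that array or else the 1 gene with the smallest p. The alternatives were repeated quantile normalization, a variance trend (robust), genes above the median gene, the mean of rows per gene, the replicate number as a block, no empirical Bayes, array weights and leaving out each array. The number of arrays limits the precision.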

Additional observations from a re-analysis of the deposited data

How the results depend on the processing

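Over 6 arrays the count of 0 called genes became 103 with array weights, which gave Dnmt3b-KO replicate 3 a weight of 0.112, and leaving out single arrays gave 0 to 509, the latter without Dnmt3b-KO replicate 3. The counts of 0 members and 0 pathway genes over 6 arrays held under every alternative run. Without Dnmt3b-KO replicate 3, 509 genes turned into 1003 when only genes above the median gene were tested, 96 with the replicate number as a block and 0 without empirical Bayes, and leaving out 1 more array gave 13 to 262, with a single Dnmt3b-KO array taken to vary as the controls do. Among genes above the median gene, members called there became 1 (Phgdh) of the 8 that entered, against 1003 of all 15071 such genes. Pathway genes became 7 with that filter (Fos, Slc7a6, Slc38a1, Bcl2l11, Tnfrsf10b, Herpud1 and Hyou1). With the block they became 2 (Jun, 2.00, adjusted p = 0.035, and Fos, 1.43, adjusted p = 0.0433, by limma), against 96 of all 30142 genes. The filter tests fewer genes, and the cause of the rest was not tested. The sign turned for Phgdh over 6 arrays with array weights (-0.57), for Ddit3 without Dnmt3b-KO replicate 3 with the mean of its rows (-0.01) and for Atf4 there with the block (0.03). Leaving out single arrays also turned signs: over 6 arrays Atf4 ran from -0.01 to 0.38, Trib3 from -0.04 to 1.53 and Phgdh from -0.70 to 1.34, each negative without Dnmt3b-KO replicate 3. Without that array, leaving out 1 more, Atf4 ran from -0.23 to 0.20, Ddit3 from -0.10 to 0.19, Asns from -0.08 to 0.12 and Trib3 from -0.08 to 0.00. The count of 9 members highest on Dnmt3b-KO replicate 3 was 9 after repeated quantile normalization and with the mean of rows. The deviations of arrays that share a replicate number correlated at 0.13, 0.03 and 0.11, and those of arrays with different numbers at -0.12 to 0.09. Such low values from 3 arrays per group cannot decide whether the numbers mark pairs. The labels name no pairs, so the main fits used no block. Trib3 and Slc7a11, with means below the median gene, could not enter the filtered fit.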
